A study of Mus musculus with 10 samples.

Results

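The genes described here are the mouse cytochrome P450 (CYP) genes of families 1 to 4 and the cytosolic and mitochondrial glutathione S-transferase (GST) genes. Members were taken by symbol: every row of the deposited table whose gene symbol names a Cyp1, Cyp2, Cyp3 or Cyp4 gene, other than the club cell marker Cyp2f2, or a Gsta, Gstk, Gstm, Gsto, Gstp, Gstt or Gstz gene. The rule found 125 transcript rows of 105 genes among the 24394 gene symbols of the table, of which 84 were CYP and 21 were GST genes. Rows of the same symbol were summed.

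Whole lung tissue of female BALB/c mice, bought at 8 weeks of age, was sequenced as RNA, in 3 groups. The Saline mice (n = 3) were injected with saline alone. OVA mice (n = 3) were sensitized by injection of ovalbumin, an egg white protein, with alum and then challenged with it through the nose, a widely used model of allergic asthma, and received the oral vehicle. Herb mice (n = 4) went through the same ovalbumin protocol and received by mouth an ethanol extract of Descurainia sophia seeds, so the extract was given only on top of ovalbumin and no group received the extract alone. Values are FPKM, fragments scaled to transcript length and to the number of mapped fragments, so levels of different genes can be compared.

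CYP enzymes of families 1 to 3 are membrane-bound monooxygenases that oxidise drugs, plant compounds and pollutants, and family 4 enzymes mainly hydroxylate fatty acids and eicosanoids. GST enzymes then couple the electrophilic products to glutathione, so that they can be exported. Liver holds most of this capacity, but the lung has its own set, concentrated in club cells of the small airways and in alveolar type 2 cells. Many of these genes are induced by foreign compounds: Cyp1 genes through the aryl hydrocarbon receptor (AhR), Cyp2b and Cyp3a genes through the nuclear receptors CAR and PXR, and many GST genes through the transcription factor NRF2. Plant extracts taken by mouth hold many such foreign compounds.

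The promoters of 3 members are shown because these genes are standard readouts of the 3 induction routes. They are RefSeq sequences of the GRCm38.p6 build, 300 bases from 250 bases before to 50 bases after a transcript start, 5′ to 3′ on the strand of the gene. Cyp1a1 lies at chr9:57697363-57697662 on the plus strand, Cyp2b10 at chr7:25897408-25897707 on the plus strand and Gsta3 at chr1:21240335-21240634 on the plus strand. Capitals mark the core of the xenobiotic response element bound by AhR (GCGTG, or CACGC where it lies on the other strand) and the antioxidant response element bound by NRF2 (TGACNNNGC), both searched on both strands. These matches are described and were not tested as binding sites. No element bound by CAR or PXR was searched.

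Cyp1a1: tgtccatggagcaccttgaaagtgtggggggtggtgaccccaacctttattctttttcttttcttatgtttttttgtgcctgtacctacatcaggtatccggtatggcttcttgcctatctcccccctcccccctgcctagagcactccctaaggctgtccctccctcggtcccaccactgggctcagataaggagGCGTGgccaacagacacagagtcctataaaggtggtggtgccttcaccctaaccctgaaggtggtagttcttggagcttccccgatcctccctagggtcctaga

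Cyp2b10: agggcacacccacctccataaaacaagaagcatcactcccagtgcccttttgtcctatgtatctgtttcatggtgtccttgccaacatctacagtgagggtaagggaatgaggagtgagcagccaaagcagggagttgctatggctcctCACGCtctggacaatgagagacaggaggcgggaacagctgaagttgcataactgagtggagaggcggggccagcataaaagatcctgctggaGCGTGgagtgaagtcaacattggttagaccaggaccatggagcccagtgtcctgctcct

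Gsta3: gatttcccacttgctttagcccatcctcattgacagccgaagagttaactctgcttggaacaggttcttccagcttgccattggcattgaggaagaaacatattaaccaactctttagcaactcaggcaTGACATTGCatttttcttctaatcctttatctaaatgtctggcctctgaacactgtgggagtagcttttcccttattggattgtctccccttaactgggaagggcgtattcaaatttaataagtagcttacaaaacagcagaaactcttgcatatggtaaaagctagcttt

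The core GCGTG occurred in 10639 of 32851 promoters of all genes (32.4%) and in 20 of the 99 promoters found for 84 of the 105 CYP and GST genes (20.2%). TGACNNNGC occurred in 12.4% of all promoters and in 9 of the 99 (9.09%). In the 29 promoters found for 25 of the 30 genes tested below, GCGTG occurred in 10 (34.5%) and TGACNNNGC in 4 (13.8%), and no test of these shares was run.

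A mean of at least 1 FPKM over the 10 libraries was reached by 30 of the 105 genes (28.6%), compared with 11205 of all 24394 symbols (45.9%). The GST genes were mostly present in lung: 15 of 21 (71.4%) reached 1 FPKM and none was listed at 0 in every library. The CYP genes were mostly not: 15 of 84 (17.9%) reached 1 FPKM, and 33 were listed at 0 in all 10 libraries. Among the latter were the classic hepatic enzymes Cyp1a2, Cyp3a11 and Cyp2c29. An exact 0 in these files can also be a failed estimate of the transcript assembler, so these genes are described as listed at 0.

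By family, 1 of 3 Cyp1, 6 of 49 Cyp2, none of 9 Cyp3 and 8 of 23 Cyp4 genes reached 1 FPKM. For the GST classes the counts were 3 of 4 Gsta, 4 of 7 Gstm, 3 of 4 Gstt, both Gstp genes, 1 of 2 Gsto and the single Gstk and Gstz genes. The last gene above the threshold was Gstm4, with a mean of 1.14 FPKM, and the first below it was Cyp2e1, the ethanol-inducible CYP, with 0.95 FPKM. When each library was left out in turn, 30 or 31 genes reached the threshold, and 35 genes reached it in at least 1 group.

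**Figure D1:**
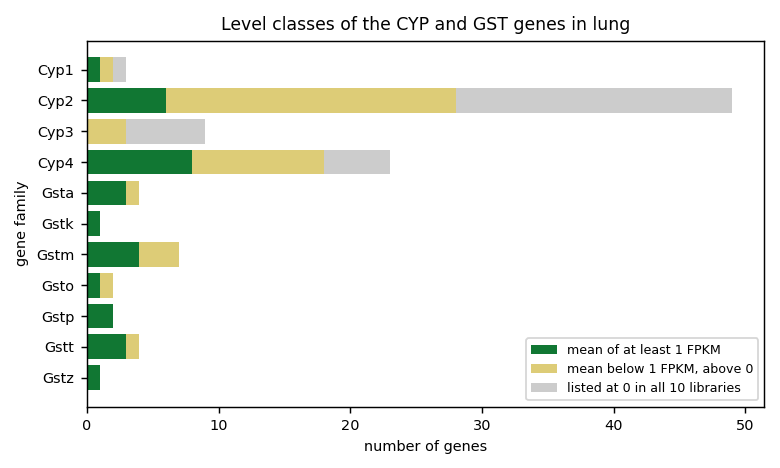
The horizontal axis counts genes and the vertical axis lists the families, with bars divided into genes at a mean of at least 1 FPKM, genes above 0 with a mean below 1 FPKM and genes listed at 0 in all 10 libraries. All 33 genes listed at 0 belong to the Cyp1 to Cyp4 families, and 15 of 21 GST genes lie in the highest class.

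The libraries differed in composition before any single gene is considered. Per library, 14850000 to 29550000 mapped fragments were estimated from the step size of the lowest values. The share of fragments on protein-coding RefSeq transcripts was 33.2% ± 0.207 (SD, n = 3) in Saline, 13.4% ± 1.49 (n = 3) in OVA and 22.8% ± 2.83 (n = 4) in Herb. A class of RNA that takes more fragments lowers the FPKM of all other genes, so differences are given on 2 scales: values as deposited, and values rescaled so that each library has the same 75th percentile of gene values above 0. As deposited, the median over all 11205 genes tested was -0.75 (log2) in OVA vs. Saline, 0.48 in Herb vs. OVA and -0.27 in Herb vs. Saline, and after rescaling it was -0.02, 0.04 and 0.02.

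Cyp4b1, a fatty acid hydroxylase that also activates several lung toxicants, had the highest mean of all members. It was measured at 164, 234 and 180 FPKM in the Saline mice, at 21.4, 27.7 and 7.22 in the OVA mice and at 50.9, 62.8, 28.3 and 20.7 in the Herb mice. The Saline libraries lay far above all others, while the OVA and Herb libraries overlapped, because Herb replicate 4 lay below the 2 highest OVA libraries. The neighbouring transcribed pseudogene Cyp4b1-ps2 had 8.15, 14.2 and 13.6 FPKM in Saline, was listed at 0 in 2 OVA libraries and at 0.336 in the third, and ranged from 0.347 to 3.46 in Herb. Of the stretches of 100 bases in the Cyp4b1-ps2 transcript, 15.8% also occur in Cyp4b1, so reads of the pair are partly shared.

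Cyp2b10, the standard target gene of CAR, was the second most abundant CYP among the members, which leave out the more abundant Cyp2f2. Its values were 32.6, 47.1 and 30.3 FPKM in Saline, 2.49, 3.34 and 0 in OVA, and 16.1, 16.2, 4.51 and 8.49 in Herb. The 3 groups did not overlap, with Saline highest and OVA lowest. Cyp2s1, an enzyme of epithelia that also metabolises retinoids and lipid peroxides, followed with 8.71 to 15.1 FPKM in Saline, 11 to 17.2 in OVA and 12.8 to 17.3 in Herb, where all groups overlapped.

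Among the GST genes the alpha, mu and pi classes were the most abundant alongside Gsto1. Gsta3, an alpha class enzyme known for detoxifying aflatoxin epoxide in mice, had 49.3, 69.8 and 56.6 FPKM in Saline, 9.20, 10.4 and 4.84 in OVA and 19.8, 23.4, 12.3 and 11.2 in Herb. Gstm1 had 43.5, 55.0 and 49.1 FPKM in Saline, 7.63, 11.4 and 5.18 in OVA and 17.9, 28.1, 11.9 and 12.3 in Herb. For both genes every Saline library exceeded every Herb library and every Herb library exceeded every OVA library.

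Gstm2 showed the same order except for an overlap of OVA and Herb, at 25.7, 29.5 and 26.6 FPKM in Saline, 3.83, 6.35 and 3.28 in OVA and 11.2, 12.8, 5.47 and 8.28 in Herb. Gstp1, the pi class enzyme that is the main GST of human lung, had 19.8, 19.3 and 20.4 FPKM in Saline, 3.28, 4.30 and 5.77 in OVA and 7.99, 6.47, 6.62 and 8.31 in Herb, with no overlap between the groups. Its level is uncertain against that of the neighbouring copy Gstp2, since 52.8% of the 100-base stretches of Gstp1 also occur in Gstp2 or a Gstp pseudogene.

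Gsto1, an omega class enzyme with thiol transferase activity, behaved unlike the rest. It had 14.3, 12.4 and 13.8 FPKM in Saline, 5.23, 11.9 and 80.2 in OVA and 24.6, 14.6, 27.1 and 66.4 in Herb. Single libraries of OVA and Herb were far above the others of their group, so a group mean is of little use for this gene. Every Herb library exceeded every Saline library.

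**Figure D2:**
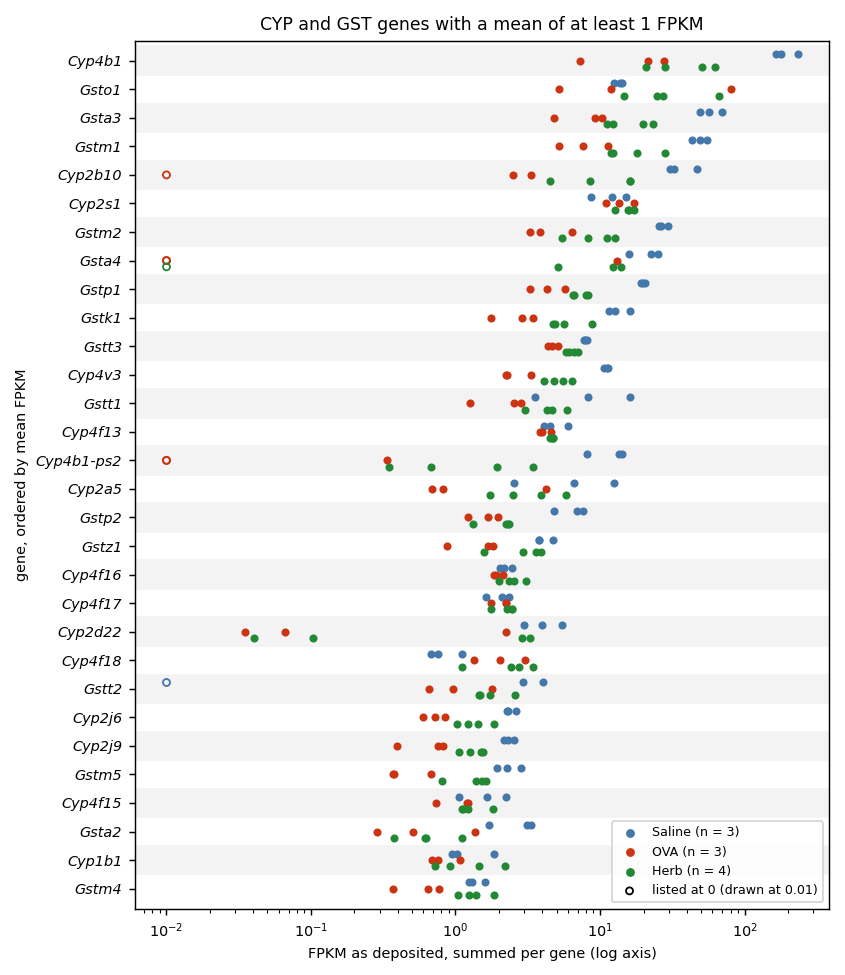
Each point is 1 library, with FPKM as deposited on a log axis and the 30 genes ordered by mean, Saline in blue, OVA in red and Herb in green; open circles mark values listed at 0, drawn at 0.01. Saline libraries lie to the right for most genes, from Cyp4b1 at 164 to 234 FPKM downwards, while Cyp2s1 and the Cyp4f genes overlap between groups and Cyp4f18 lies lower in Saline.

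OVA vs. Saline asks how the genes differ between asthmatic and control lung. As deposited, 21 of the 30 members were lower in OVA (70.0%, against a background of 57.9% of all genes tested) and 1 was higher (3.33%, background 3.28%), by limma with Benjamini-Hochberg adjusted p under 0.05. After rescaling, 13 members were lower (43.3%, background 20.9%) and 5 were higher (16.7%, background 20.1%). The median log2 difference of the members was -1.16 as deposited and -0.63 rescaled, below the median of all genes on both scales. As deposited, the OVA and Saline libraries of 20 members did not overlap with OVA lower (66.7%, background 63.0%), and those of 1 with OVA higher (3.33%, background 4.68%).

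The CYP genes that fell the most were Cyp2b10, by 3.90 on the log2 scale as deposited (SE 0.594, limma adjusted p = 0.000475), Cyp4b1-ps2, by 3.52 (SE 0.418, adjusted p = 0.000173), and Cyp4b1, by 3.46 (SE 0.521, adjusted p = 0.000453). After rescaling they fell by 3.15, 3.06 and 2.46, and all 3 remained called, with adjusted p from 0.00128 to 0.00546. They differ in role, since Cyp2b10 oxidises drugs and steroids and Cyp4b1 fatty acids. The value of Cyp2b10 includes the OVA library listed at 0. With the assembled transcript model described below added, Cyp2b10 fell by 3.38 as deposited (limma adjusted p = 0.000251) and by 2.42 rescaled (adjusted p = 0.00293). Both falls were then smaller than those of Cyp4b1-ps2 and Cyp4b1. Cyp4v3, a fatty acid omega-hydroxylase, fell by 1.75 as deposited and by 0.91 rescaled, and the epoxygenases Cyp2j6 and Cyp2j9 by 0.99 and 1.02 as deposited and by 0.42 and 0.46 rescaled, all 3 called on both scales.

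Of the 15 GST genes tested, 13 were lower (background 57.9%) and none was higher (background 3.28%) in OVA as deposited, and 7 were lower (background 20.9%) and none higher (background 20.1%) after rescaling. The 7 were Gsta3 (log2 difference -2.75 as deposited, -1.78 rescaled), Gstm1 (-2.52, -1.56), Gstm2 (-2.40, -1.49), Gstk1 (-1.98, -1.13), Gstp1 (-1.96, -1.05), Gstp2 (-1.50, -0.74) and Gstm5 (-1.18, -0.68). Gstk1 is the kappa class enzyme of mitochondria and peroxisomes. The theta class gave no call after rescaling: Gstt1 was at -1.52 as deposited and -0.71 rescaled, and Gstt3 turned from -0.65 (adjusted p = 0.000757) to 0.23 (adjusted p = 0.113). Gstz1, the zeta class enzyme of tyrosine breakdown, was called lower as deposited (-1.07) and not after rescaling (-0.35, adjusted p = 0.362).

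The remaining calls as deposited were lost after rescaling, and some of these genes had uneven replicates. Cyp2a5, the lung form that oxidises nicotine and coumarin, had 2.54, 6.59 and 12.4 FPKM in Saline, 0.691, 0.826 and 4.21 in OVA and 1.73, 2.51, 3.88 and 5.83 in Herb, with overlap of all groups (OVA vs. Saline -1.50, adjusted p = 0.0483). Cyp2d22 had 5.45, 2.97 and 3.96 FPKM in Saline, 0.0348, 2.24 and 0.0659 in OVA and 2.88, 3.27, 0.103 and 0.0404 in Herb, with libraries at either a few FPKM or near 0 in both ovalbumin groups (-1.72, adjusted p = 0.0452). The row before it is a transcript model assembled from the reads, without a gene symbol. This model had 2.21, 2.41 and 2.63 FPKM in Saline, 2.18, 0.014 and 0 in OVA and 2.37, 0.153, 2.62 and 2.11 in Herb. It was near 0 in OVA replicate 2 and lowest of its group in Herb replicate 2, the libraries where Cyp2d22 was highest in each group.

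Gstt1 ranged from 3.55 to 16.2 FPKM within Saline, 1.26 to 2.83 in OVA and 3.01 to 5.90 in Herb. The assembled model in the row before Gstt1 had 0.281, 8.10 and 3.42 FPKM in Saline, where Gstt1 had 16.2, 3.55 and 8.24. In OVA the model had 0.275 to 1.15 and in Herb 0.554 to 3.89. No sum of Cyp2d22 or Gstt1 with such a model was fitted, so their calls rest on the annotated rows alone. Gsta2 and Gstm4 were lower in OVA by 1.13 and 0.58 as deposited, with adjusted p of 0.00607 and 0.0131. Gstt2, Cyp4f15 and Cyp1b1 were called on neither scale in any comparison.

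The Cyp4f genes, whose products inactivate leukotriene B4 and other lipid mediators, did not follow the other members. As deposited, Cyp4f18, the form of neutrophils and other leukocytes, was the only one of the 5 tested that was called, higher in OVA by 0.74 (SE 0.288, adjusted p = 0.0492). Its values were 0.673, 0.758 and 1.10 FPKM in Saline, 1.34, 2.04 and 3.04 in OVA and 2.77, 2.43, 1.10 and 3.46 in Herb. The OVA libraries all lay above the Saline libraries, and the lowest Herb library lay just above the highest Saline library.

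After rescaling, 4 of the 5 Cyp4f genes were called higher in OVA, against a background of 20.1% of all genes tested: Cyp4f18 by 1.33 (adjusted p = 0.00492), Cyp4f17 by 0.73, Cyp4f13 by 0.67 and Cyp4f16 by 0.58. For Cyp4f13 and Cyp4f16 the sign itself depended on the scale, as they were at -0.18 and -0.12 as deposited. Cyp2s1 was the fifth member called higher after rescaling, by 1.16 (adjusted p = 0.00719), with 0.21 and no call as deposited. Of the 100-base stretches of Cyp4f16, 9.87% also occur in other Cyp4f genes.

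Herb vs. OVA asks which genes differed between ovalbumin mice with and without the extract. As deposited, 14 of 30 members were higher in Herb (46.7%, background 44.0%) and none was lower (0%, background 0.446%, and 0 members at an unadjusted p under 0.05). The share of members called higher was thus near that of all genes. After rescaling, limma called none of the 30 in either direction (backgrounds 0.366% higher and 0.348% lower, at the adjusted p). At an unadjusted p under 0.05 the rescaled values gave 4 higher (Cyp2b10, Cyp4v3, Cyp4b1-ps2 and Gstm5) and 2 lower (Cyp4f13 and Cyp4f17). The share of all genes at an unadjusted p under 0.05 was counted on neither scale, so the unadjusted counts have no background. Groups without overlap gave a picture like that of the calls: all Herb libraries lay above all OVA libraries for 13 members as deposited (43.3%, background 49.6%) and below them for none (background 0.651%), and after rescaling for 2 (6.67%, background 12.8%) and 1 (3.33%, background 10.1%).

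**Figure D3:**
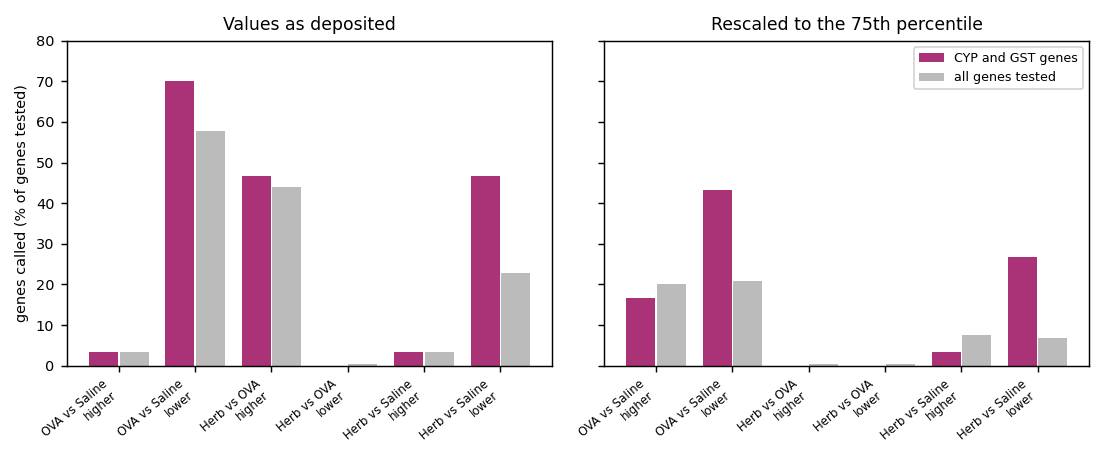
Bars give the percentage of genes called at an adjusted p under 0.05, on values as deposited (left) and rescaled (right), for the 30 CYP and GST genes and for all 11205 genes tested. In Herb vs. OVA the members' 46.7% lies beside a background of 44.0% as deposited and falls to 0% after rescaling, whereas in OVA vs. Saline 43.3% of the members are lower after rescaling against 20.9% of all genes.

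The 14 genes were Cyp2b10, Cyp2j6, Cyp2j9, Cyp4b1-ps2, Cyp4v3, Gsta3, Gstk1, Gstm1, Gstm2, Gstm4, Gstm5, Gstp1, Gstt3 and Gstz1. All 4 tested mu class genes were among them. Their differences as deposited ran from 0.37 for Gstt3 to 2.17 for Cyp2b10, around the median of all genes of 0.48. After rescaling 13 of the 14 remained above 0, from 0.09 for Gstp1 to 1.79 for Cyp2b10, and Gstt3 was at -0.18. The 14 were picked as higher on the deposited scale, so signs above 0 are in part given by that choice. The rescaled median also rose with level. At means of 20 to 100 FPKM it was 0.54 for all genes and 0.39 for the 4 members. At 5 to 20 FPKM it was 0.16 and 0.30 (9 members), at 2 to 5 FPKM -0.02 and 0.03 (8 members), and at 1 to 2 FPKM -0.06 and 0.06 (9 members). Cyp4b1, with a difference of 1.13 as deposited, was not called (SE 0.487, adjusted p = 0.0859), and was at 0.51 rescaled.

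Cyp2b10 had the largest difference of the members on both scales. It was higher in Herb by 2.17 as deposited (SE 0.556, limma adjusted p = 0.0141, 95% interval 0.92 to 3.43) and by 1.79 rescaled (SE 0.604, adjusted p = 0.112, interval 0.42 to 3.16), and all 4 Herb libraries exceeded all 3 OVA libraries. The OVA library listed at 0 takes part in this value. Over all alternatives the adjusted p of Cyp2b10 ran from 0.00766 to 0.129, and without any single library it stayed at or under 0.0385 on the deposited scale. The row after Cyp2b10 in the table is a transcript model assembled from the reads without a gene symbol, which had 41.3, 66.2 and 44.1 FPKM in Saline, 5.31, 10.2 and 3.49 in OVA and 23.2, 25.1, 15.3 and 12.8 in Herb.

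With this model added to Cyp2b10, the difference was 1.84 as deposited (adjusted p = 0.00982) and 1.26 rescaled (adjusted p = 0.0991). The groups again did not overlap, and no library was at 0. That the model belongs to Cyp2b10 rests on the order of rows alone. In Herb vs. Saline, Cyp2b10 was lower by 1.73 as deposited (adjusted p = 0.0481), while the rescaled difference of -1.36 was not called (adjusted p = 0.154), and over 21 settings it was called in 7. With the model added, the difference was -1.53 as deposited (adjusted p = 0.029) and -1.16 rescaled (adjusted p = 0.0822). Gstm1 also has such a neighbour, and with it added Gstm1 was at 0.95 (adjusted p = 0.0323) as deposited and 0.33 (adjusted p = 0.438) rescaled in Herb vs. OVA.

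Gsta4, the alpha class enzyme for the lipid peroxidation product 4-hydroxynonenal, illustrates the same limit more strongly. Its own rows gave 15.9, 25.1 and 22.6 FPKM in Saline, 0, 0 and 13.1 in OVA and 12.3, 14.0, 5.14 and 0 in Herb, and it was called lower in OVA vs. Saline (log2 difference -3.18, SE 1.20, adjusted p = 0.0439). The next assembled model was at 0.014 FPKM or 0 in Saline, at 4.92, 7.001 and 0 in OVA and at 0, 0, 8.45 and 17.1 in Herb. It was present in every library in which Gsta4 was listed at 0.

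The sum of Gsta4 and this model was 15.9, 25.1 and 22.6 FPKM in Saline, 4.92, 7.001 and 13.1 in OVA and 12.3, 14.0, 13.6 and 17.1 in Herb. On this sum the difference in OVA vs. Saline was -1.32 (adjusted p = 0.00431) as deposited and -0.38 (adjusted p = 0.34) rescaled. In Herb vs. OVA it was 0.80 (adjusted p = 0.0468) as deposited and 0.21 (adjusted p = 0.665) rescaled. The sum thus moved less than the annotated Gsta4 rows, and it had no library at 0. The adjusted p of Gsta4 lay between 0.00431 and 0.34 for OVA vs. Saline over all alternatives, and between 0.0468 and 0.719 for Herb vs. OVA.

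**Figure D4:**
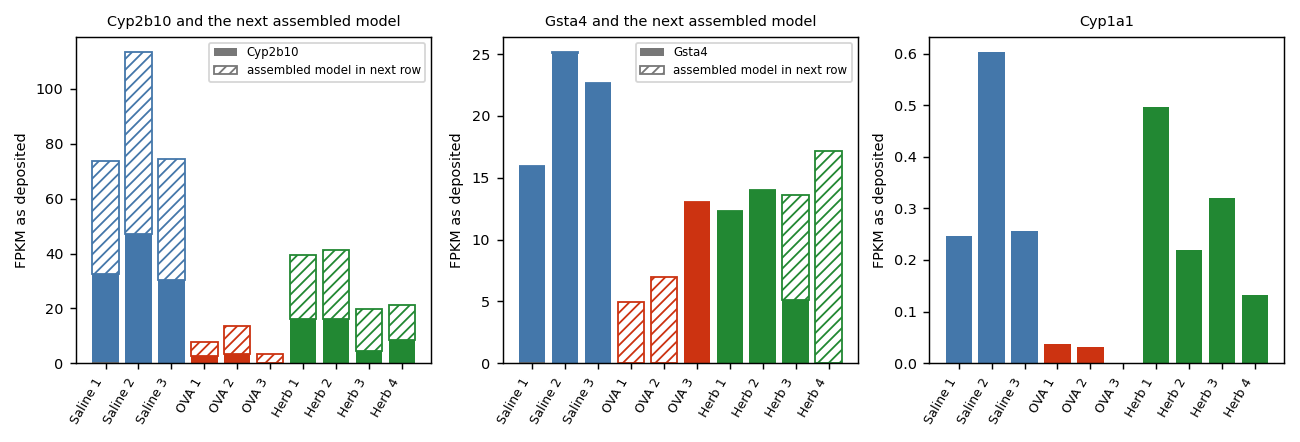
Bars give FPKM as deposited for each of the 10 libraries (Saline blue, OVA red, Herb green), with the assembled transcript model of the next row hatched and stacked on Cyp2b10 and Gsta4. For Gsta4 the hatched model fills the libraries listed at 0, up to 17.1 FPKM in Herb replicate 4; Cyp1a1 stays at or under 0.0377 FPKM in OVA and between 0.133 and 0.496 in Herb.

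Cyp1a1, the most sensitive target gene of AhR, was a low gene below the filter. It was measured at 0.247, 0.602 and 0.257 FPKM in Saline, 0.0377, 0.0317 and 0 in OVA and 0.496, 0.22, 0.321 and 0.133 in Herb. All Herb libraries lay above all OVA libraries and overlapped with the Saline libraries. The exact permutation test of Herb vs. OVA gave p = 0.0571 (two-sided, n = 4 and 3), both as deposited and rescaled, which is the smallest p that this design allows.

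About 57 fragments in all Herb libraries and 5 in all OVA libraries stood behind these Cyp1a1 values. At the estimated depths this is a ratio of 11.4, with an exact 95% interval of 4.62 to 36.5 that covers counting error only. The ratio of the group mean FPKM was 12.6 as deposited and 7.81 after rescaling. Without the filter on low values, limma gave a difference of 0.33 on the log2(FPKM + 1) scale (adjusted p = 0.0643), and 0.30 (adjusted p = 0.163) after rescaling, so Cyp1a1 was not called. The OVA library listed at 0 allows up to 0.055 FPKM at its depth (3 fragments). The scale with 1 FPKM added compresses a gene of this level.

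Among all genes below the filter, Cyp2u1, a fatty acid hydroxylase, was the only member called higher in Herb vs. OVA without the filter (0.24, SE 0.069, adjusted p = 0.0375), at 0.253 to 0.276 FPKM in OVA and 0.434 to 0.576 in Herb. After rescaling it was at 0.07 (adjusted p = 0.526).

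The other genes of the AhR route gave no call in Herb vs. OVA after rescaling. Cyp1b1, the extrahepatic Cyp1 enzyme, had 1.03, 1.84 and 0.948 FPKM in Saline, 0.689, 0.755 and 1.07 in OVA and 0.911, 1.44, 0.725 and 2.19 in Herb, with overlapping groups and a difference in Herb vs. OVA of 0.30 as deposited (adjusted p = 0.32) and -0.03 rescaled. Cyp1a2 was listed at 0 throughout. Of a list of 10 AhR target genes, 4 were tested: 1 was higher in Herb vs. OVA as deposited, Ugt1a6b (0.63), against a background of 44.0%, and none after rescaling.

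For the CAR and PXR route, 4 of 13 listed genes were tested, and 2 were higher in Herb vs. OVA as deposited (Cyp2b10 and Gstm1, background 44.0%) and none after rescaling. In OVA vs. Saline 4 were lower as deposited (background 57.9%) and 3 after rescaling (background 20.9%). In Herb vs. Saline 4 were lower as deposited (background 22.7%) and 2 after rescaling (background 6.76%). Abcb1a, a transporter gene of this list, had 9.25, 6.68 and 9.98 FPKM in Saline and was listed at 0 in every OVA and Herb library. RNA of both receptors was low: Nr1i3, which encodes CAR, stayed at or under 0.134 FPKM in all libraries, and Nr1i2, which encodes PXR, under 0.29. Cyp3a11, the main PXR target of mouse liver, was listed at 0 in all libraries. Cyp3a13, the extrahepatic Cyp3a form, had 0.413 to 0.524 FPKM in Saline, 0.112 to 0.16 in OVA and 0.0922 to 0.356 in Herb, with OVA and Herb overlapping. Cyp2e1 had 1.91, 2.51 and 1.86 FPKM in Saline, 0.163, 0.38 and 0.0223 in OVA and 0.924, 1.34, 0.141 and 0.253 in Herb, where OVA and Herb overlapped and both lay below Saline.

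For the NRF2 route, 14 of 17 listed genes, mostly GST genes, were tested. In OVA vs. Saline 12 were lower as deposited (background 57.9%) and 6 after rescaling (background 20.9%), and none was higher. Between Herb and OVA, 6 of the 14 were higher in Herb as deposited (background 44.0%) and none after rescaling. Nfe2l2, which encodes NRF2, was itself lower in OVA vs. Saline by 2.14 as deposited and by 1.21 rescaled (adjusted p = 0.00431), and in Herb vs. OVA it was higher by 0.80 as deposited (adjusted p = 0.0139) with no call after rescaling. Gsta1 stayed at or under 0.39 FPKM in all libraries, and Gsta2, of which 35% of the 100-base stretches also occur in other alpha class genes, had 0.286 to 1.36 in OVA and 0.374 to 1.10 in Herb.

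Further genes of the same pathways were counted in the same way. In OVA vs. Saline the backgrounds for these counts were 57.9% lower and 3.28% higher as deposited and 20.9% lower and 20.1% higher after rescaling, and in Herb vs. OVA 44.0% higher as deposited. Of 28 oxidising, reducing and hydrolysing enzymes outside the CYP families, 19 were lower and 1 was higher in OVA vs. Saline as deposited, and 12 and 2 after rescaling; Fmo1, a flavin monooxygenase, was at -3.79 as deposited and -2.96 rescaled. Of 12 conjugating enzymes outside the GST families, 8 were lower and none was higher as deposited, and 2 were lower and 2 higher after rescaling, with the microsomal transferase Mgst3 at -2.38 and -1.53. The 2 higher were Ugt1a7c (0.69) and Gstcd (0.71). Between Herb and OVA, 13 of the 28 and 5 of the 12 were higher in Herb as deposited, and none was called after rescaling.

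Of 11 genes of glutathione supply and use, 6 were lower in OVA vs. Saline as deposited and 3 after rescaling, with none higher, led by the secreted peroxidase Gpx3 (-3.32 and -2.31). Between Herb and OVA, 5 of the 11 were higher in Herb as deposited and none after rescaling. Of 11 transporters, 7 were lower and none was higher in OVA vs. Saline as deposited, and after rescaling 4 were lower and 2 higher, the efflux pumps Abcc1 (0.79) and Abcc5 (0.98). Of 10 sensors and their repressors, 7 were lower and none was higher as deposited, and after rescaling 2 were lower and 1 higher, the retinoid X receptor Rxra (0.42). Higher in Herb than in OVA were 3 transporters and 3 sensors as deposited, and none after rescaling.

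**Figure D5:**
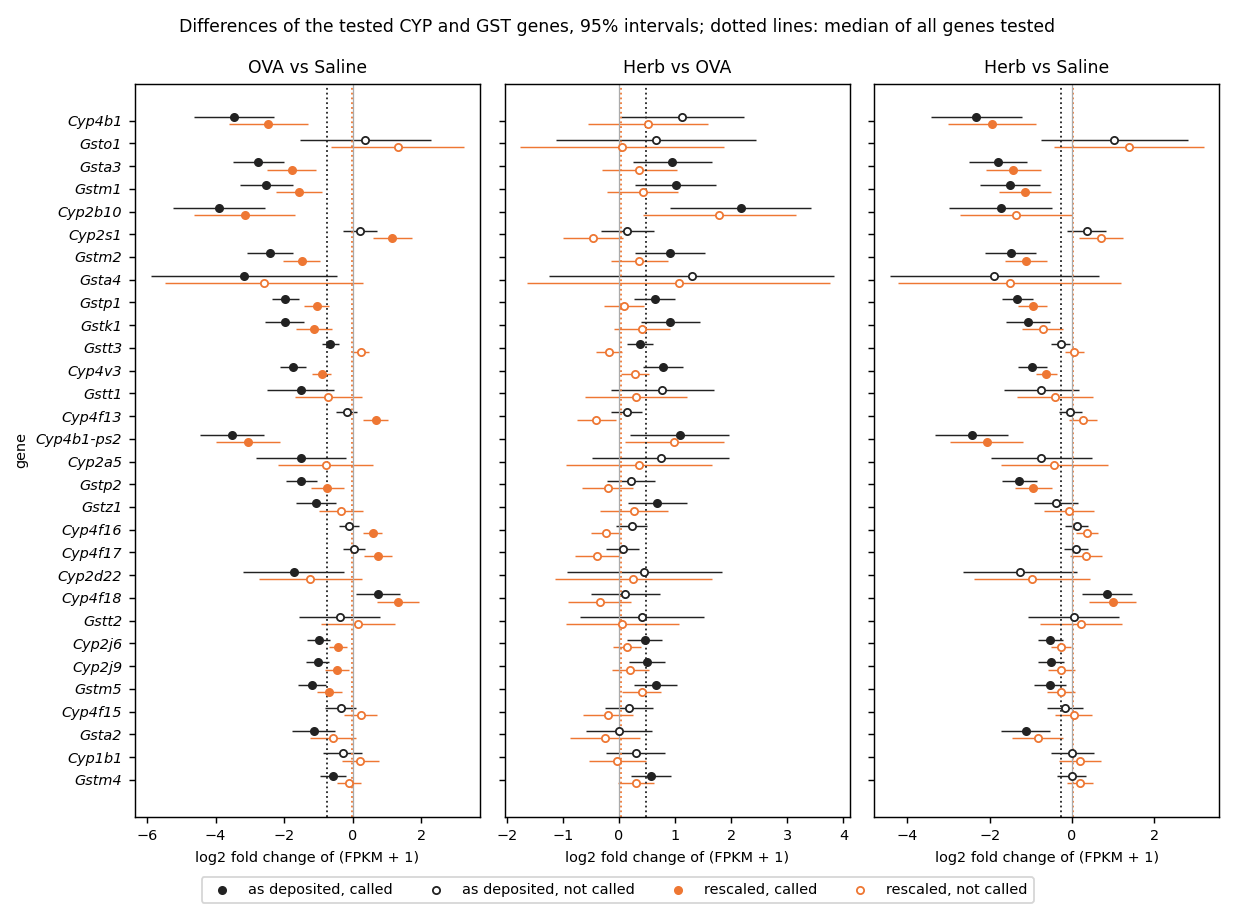
Points give the log2 difference of (FPKM + 1) for the 30 tested genes, with 95% intervals, in black as deposited and in orange rescaled; filled points passed an adjusted p of 0.05, and dotted lines mark the median of all genes. In Herb vs. OVA no orange point is filled and Cyp2b10 lies furthest right, at 1.79, while in OVA vs. Saline 13 orange points are filled on the left and 5 on the right.

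Herb vs. Saline compares lung of ovalbumin mice given the extract with control lung. As deposited, 14 of 30 members were lower (46.7%, background 22.7%) and 1, Cyp4f18, was higher (3.33%, background 3.32%). After rescaling, 8 were lower (26.7%, background 6.76%) and Cyp4f18 was again higher (0.98, adjusted p = 0.0349; background 7.57%). The libraries of these groups did not overlap as deposited in 16 members with Herb lower (53.3%, background 36.6%) and in 2 with Herb higher (6.67%, background 6.94%). The 8 were Cyp4b1-ps2 (-2.07), Cyp4b1 (-1.95), Gsta3 (-1.42), Gstm1 (-1.14), Gstm2 (-1.12), Gstp1 (-0.96), Gstp2 (-0.94) and Cyp4v3 (-0.62).

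Summed over the 105 genes, the level was 544 ± 75.3 FPKM (SD, n = 3) in Saline, 134 ± 39 (n = 3) in OVA and 221 ± 40.3 (n = 4) in Herb. Per 1000 FPKM of protein-coding transcripts it was 3.90 ± 0.334, 2.78 ± 0.55 and 2.52 ± 0.171. On this relative scale OVA and Herb overlapped (exact permutation p = 0.514, two-sided, n = 3 and 4), and every OVA and Herb library lay below every Saline library, where the exact tests gave p = 0.1 for OVA and 0.0571 for Herb, the smallest possible. Herb vs. OVA and OVA vs. Saline share the OVA libraries, so opposite signs in them are not independent.

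Summed as deposited, marker genes of several lung cell types were highest in Saline and lowest in OVA. The mean 75th percentile of gene values had the same order, at 6.09 FPKM in Saline, 3 in OVA and 4.7 in Herb. The summed level of the 11 genes listed as club cell markers, all of them tested, was 14161 to 24572 FPKM in Saline, 3008 to 5860 in OVA and 8521 to 13232 in Herb, that of 10 alveolar type 2 markers 4594 to 5803, 546 to 1148 and 1456 to 2915, and that of 10 endothelial markers 702 to 777, 116 to 207 and 294 to 525. Scgb1a1, the secretoglobin of club cells, made up most of the first sum, with 12768 to 22628 FPKM in Saline, 2471 to 5164 in OVA and 7705 to 11898 in Herb. After rescaling, 3 of 11 club cell, 7 of 10 alveolar type 2 and 6 of 10 endothelial markers were lower in OVA vs. Saline and none was higher. Among all genes tested, 20.9% were lower and 20.1% higher in this comparison. The 3 on the club cell list included Kdr (-1.34, adjusted p = 0.0045), a receptor gene of endothelium that is also on the endothelial list, and Scgb1a1 (-1.15, adjusted p = 0.0224). Of 10 alveolar type 1 markers, 9 were tested and 8 were lower, with sums of 908 to 1058, 68.5 to 211 and 234 to 514 FPKM. No tested club cell, alveolar or endothelial marker was called in Herb vs. OVA after rescaling. In bulk tissue fewer cells of a type and less RNA per cell cannot be told apart, and the part of cell composition in the differences of the CYP and GST genes was not tested.

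In rescaled OVA vs. Saline, ciliated cell markers gave 2 higher and 0 lower of 10 (backgrounds 20.1% and 20.9%). Smooth muscle and fibroblast markers gave 4 and 3 of 10, and the 6 tested of 12 macrophage and eosinophil markers 1 and 2. In rescaled Herb vs. OVA, 1 of the 10 smooth muscle and fibroblast markers was higher and 0 lower (backgrounds 0.366% and 0.348%). It was the collagen gene Col1a2, higher by 4.86 (limma adjusted p = 0.0292). Col1a2 was listed at 0 in every OVA library, with 19.9 to 44.5 FPKM in Herb and 0.546 to 21.96 in Saline. The macrophage and eosinophil markers summed to 114 to 239 FPKM in Saline, 87.4 to 290 in OVA and 364 to 631 in Herb. Chil3 made up most of this sum, with 71.0 to 163 FPKM in Saline, 69.7 to 256 in OVA and 320 to 593 in Herb. Ear1 was lower in Herb than in Saline (-2.13 as deposited, adjusted p = 0.012, and -1.76 rescaled, adjusted p = 0.0276), with 12.7 to 26.2 FPKM in Saline, 0.807 to 3.69 in OVA and 1.91 to 6.38 in Herb. In Herb vs. Saline, 1 of the 6 was higher and 3 were lower as deposited (backgrounds 3.32% and 22.7%), and 2 were higher and 1 lower after rescaling (backgrounds 7.57% and 6.76%). Hepatocyte markers were mostly near 0: of 12, Apoa1, Serpina1c and Fgb were listed at 0 throughout, and the sum of all 12 stayed at or under 4.87 FPKM. Serpina1b, the 1 marker tested, made up most of the Saline sum. It had 4.08, 3.03 and 3.48 FPKM in Saline, 0.207, 0.406 and 0 in OVA and 0.516 to 1.25 in Herb. In OVA vs. Saline it was lower by 1.92 as deposited and by 1.47 rescaled, both called. In Herb vs. OVA it was higher by 0.59 as deposited (limma adjusted p = 0.0284) and not called after rescaling.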

How the data were processed

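RNA was measured in lung of 10 mice, grouped by the sample titles (Saline 3, OVA 3, Herb 4). The authors trimmed reads with Cutadapt, aligned them to mm10 with HISAT2 and assembled transcripts with StringTie 1.3.3b per the labels, and deposited 1 table of FPKM with 66548 transcript rows, of which 31605 are assembled models without a symbol. Read counts were not used here, and the authors' edgeR comparisons were not used. FPKM shares out the fragments of a library, so a class of RNA that takes more fragments lowers all other genes.

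Rows were summed per symbol. Differences were fitted with limma 3.58.1 (R 4.3.3, eBayes with trend) on log2(FPKM + 1), all 10 libraries, 3 group means and no covariates, over 11205 symbols with a mean of at least 1 FPKM, with Benjamini-Hochberg adjustment; a call is an adjusted p under 0.05. On it, fold changes of low genes come out too small. Rescaling set the 75th percentile of gene values above 0 equal between libraries. The scripts were tested on simulated data. Single values were compared by exact permutation tests, two-sided, which cannot go below p = 0.1 for 3 against 3 or 0.0571 for 3 against 4. No label states the source of each replicate beyond its number, and mice were taken as the unit. Members and gene lists were chosen with earlier results of these data known. Named were the 12 members with the highest mean, up to 5 called members per direction and comparison with the largest differences, 14 standard marker enzymes, every member called higher in Herb vs. OVA, and up to 2 calls per direction of each other list.

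Depth, from the step size of values under 0.1 FPKM, was 14850000 to 29550000 mapped fragments per library. Intervals cover counting error only. Shared stretches of 100 bases were counted in GENCODE vM21 transcripts; promoters came from RefSeq on GRCm38.p6, the assembly of mm10. Alternatives covered scaling, pseudocount, filters, summing, samples in the fit, a replicate block, the screen of the study (absolute log2 difference of at least 1 with unadjusted p under 0.05) and each library left out. Assembled models added to Cyp2b10, Gsta4 and Gstm1, the rescaled fits combined with a second choice, and unfiltered fits of 4 low genes were chosen after seeing the data.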

Additional observations from a re-analysis of the deposited data

Results flagged for a closer look

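In Herb, Gstp2 had 1 library apart from the others: replicate 1 was at 1.322 FPKM and the next at 2.237. Cyp4f15 was at 1.828 FPKM in Herb replicate 2, with the next library at 1.228. Both gaps passed Dixon's 95% limit for 4 samples, which chance passes in about 1 of 20 groups, and 30 genes were examined. The assembled transcript model beside Gsta4, which belongs to no annotated gene in the table, had a mean of 3.97 FPKM in OVA while it was at 0.014 FPKM or 0 in the Saline libraries.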

How the results depend on the processing

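The number of members at a mean of at least 1 FPKM kept within 1.5 times its value under all alternatives run. The counts of calls depended on scaling. In OVA vs. Saline (21 lower, 1 higher as deposited), rescaling to the 75th percentile gave 13 and 5, quantile normalization 13 and 6, and rescaling to the summed FPKM of protein-coding rows 9 and 6. Among all genes these scalings gave 20.9%, 18.1% and 8.81% lower and 20.1%, 18.2% and 37.8% higher. In Herb vs. OVA (14 higher) all 3 scalings gave 0 (backgrounds 0.366%, 0.553% and 0.625% higher). In Herb vs. Saline (14 lower, 1 higher) they gave 8, 4 and 6 lower, and quantile normalization 0 and the last scaling 3 higher. The backgrounds were 6.76%, 2.74% and 2.86% lower, and 3.49% higher under quantile normalization and 18.4% under the last scaling. A minimum mean of 5 FPKM, which leaves fewer genes, gave 11 lower in OVA vs. Saline, 8 higher in Herb vs. OVA and 8 lower in Herb vs. Saline. The screen of the study gave 4 higher in Herb vs. OVA (background 10.7%), and fitting the 2 groups alone gave 9. Shares of all genes were not counted for the minimum of 5 FPKM, the 2 groups alone, the replicate block or single libraries left out. The single member called higher in OVA vs. Saline and in Herb vs. Saline was lost (0) under the screen, without the filter, with the minimum of 5 FPKM, with rows not summed and with the replicate block; after rescaling, the one in Herb vs. Saline was lost (0) with the replicate block or without the filter.

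With 1 library left out, 5 to 14 members were higher in Herb vs. OVA (5 without OVA replicate 1, 8 without Herb replicate 2, 9 without Herb replicate 1 or OVA replicate 3), 0 to 1 higher in OVA vs. Saline, and in Herb vs. Saline 6 to 13 lower (6 without Saline replicate 2) and 0 to 1 higher. After rescaling, Herb vs. Saline gave 0 to 10 lower (0 without Saline replicate 2) and 0 to 1 higher. The cause of these changes was not tested. Deviations of same-numbered mice from their group means had correlations of -0.009 to 0.095. Mice with different numbers were not compared and no label states a pairing, so whether the numbers pair the samples remains unknown. The replicate block gave 21 lower in OVA vs. Saline, 10 higher in Herb vs. OVA and 11 lower in Herb vs. Saline.

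Among differences called in at least 1 of the 2 settings compared, signs changed for 6 genes under the 3 scalings in the order above: Gstt3 in OVA vs. Saline (0.23, 0.34, 0.68) and Herb vs. OVA (-0.18, -0.23, -0.37), Cyp4f13 (0.67, 0.69, 1.09) and Cyp4f16 (0.58, 0.46, 0.93) in OVA vs. Saline, and with the last scaling alone Gstp1 in Herb vs. OVA (-0.10) and Gstz1 (0.02) and Gstm4 (0.13) in OVA vs. Saline. A further 78 sign changes, over all alternatives, were in differences called under neither setting, on rescaling to the 75th percentile for Cyp1b1, Cyp4f15 and Gstt2 in OVA vs. Saline and Gstp2, Cyp2s1, Cyp4f17 and Cyp4f18 in Herb vs. OVA, among others.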
